A study of Mus musculus with 6 samples.

Results

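The CTCF and cohesin loop machinery was taken as 10 genes, chosen by name: *Ctcf*, the ring subunits *Smc1a*, *Smc3* and *Rad21*, the accessory subunits *Stag1* and *Stag2*, the loaders *Nipbl* and *Mau2*, and the release and regulatory factors *Wapl* and *Pds5b*. All 10 were found among the 55385 genes of the count table, and all 10 passed the filter on low counts. RNA was sequenced from G4 mouse embryonic stem cells (mESCs), a 129/Sv × C57BL/6 F1 hybrid line, either wild-type (WT) or carrying a CRISPR-Cas9 deletion of the *Wnt6* loop anchor on chromosome 1 in heterozygous or homozygous form. Polyadenylated RNA was used for stranded libraries, and all cells were grown with LIF on CD1 feeder cells, so fibroblast RNA could enter every library. The labels give 2 replicate libraries of each genotype, 6 in all, where the methods state biological triplicates. Edited cells were isolated as clones, and how many clones stand behind each genotype is not given in the sources used here. The labels do not say whether the replicates came from separate cultures or clones, and the p-values measure the spread between these libraries.

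CTCF is a zinc finger protein that binds DNA at domain boundaries, and cohesin is a ring-shaped complex that extrudes chromatin into loops until it meets CTCF. NIPBL with MAU2 loads cohesin and drives extrusion, a STAG subunit links the ring to DNA and to CTCF, and WAPL with a PDS5 protein opens the ring and releases it. The same ring holds sister chromatids together until mitosis, so its genes are needed in every dividing cell. In embryonic stem cells this machinery sets topological domains, while long-range contacts between Polycomb-bound anchors, such as the one deleted here, are a different class of loop. The data address whether loss of such an anchor goes together with other mRNA levels of the general loop machinery.

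The libraries held between 23813912 and 28964706 counts, and the 10 genes between 1877 and 9742 counts in any library, so none of them was limited by low counts. Levels are given as CPM, counts set against the size of the library after TMM scaling, which adjusts for differences in composition. The labels were checked on 2 genes inside the deletion. *Wnt6* had 11 and 13 counts in WT, 6 and 4 in the heterozygous and 0 and 0 in the homozygous libraries. *Cdk5r2* had 30 and 27, then 16 and 17, then 1 and 2 counts. The stem cell gene *Pou5f1* stood between 876 and 1065 CPM in all libraries. The 22 fibroblast markers summed to 2052 to 2055 CPM in WT, 1378 to 1440 in the heterozygous and 916 to 933 in the homozygous libraries, so these markers, which the feeder cells express, stood at different levels in the 3 genotypes. In bulk RNA, fewer cells of a type and less RNA per cell cannot be told apart.

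To compare levels between genes, CPM was divided by the length of each gene's merged exons. In WT cells *Rad21*, the subunit that closes the ring and is cut at anaphase, stood highest at 78.5 ± 0.202 CPM per kb (SD, n = 2). *Smc3* followed at 48.6 ± 0.677, *Ctcf* at 46.1 ± 0.588, *Wapl* at 38.3 ± 0.0592 and *Smc1a* at 34.0 ± 0.224. The accessory subunit *Stag2* stood at 20.4 ± 0.471 CPM per kb and its paralog *Stag1* at 9.96 ± 0.160. *Nipbl* stood at 14.1 ± 0.762, *Mau2* at 9.02 ± 0.247 and *Pds5b* at 8.17 ± 0.0262. In WT no neighbours in this order had overlapping libraries. The order was the same in the deletions except at 2 places. *Mau2* fell below *Pds5b* in the heterozygous deletion (8.14 against 8.17 CPM per kb, libraries overlapping), and *Ctcf* passed *Smc3* in the homozygous deletion (59.1 against 52.2, libraries not overlapping). *Stag1* and *Mau2* overlapped in the homozygous libraries. The coefficient of variation between replicates had a median over the 10 genes of 1.33% in WT, 2.61% in heterozygous and 1.20% in homozygous cells. The merged exon length counts every annotated exon, so a gene that uses short isoforms is understated on this scale.

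**Figure D1:**
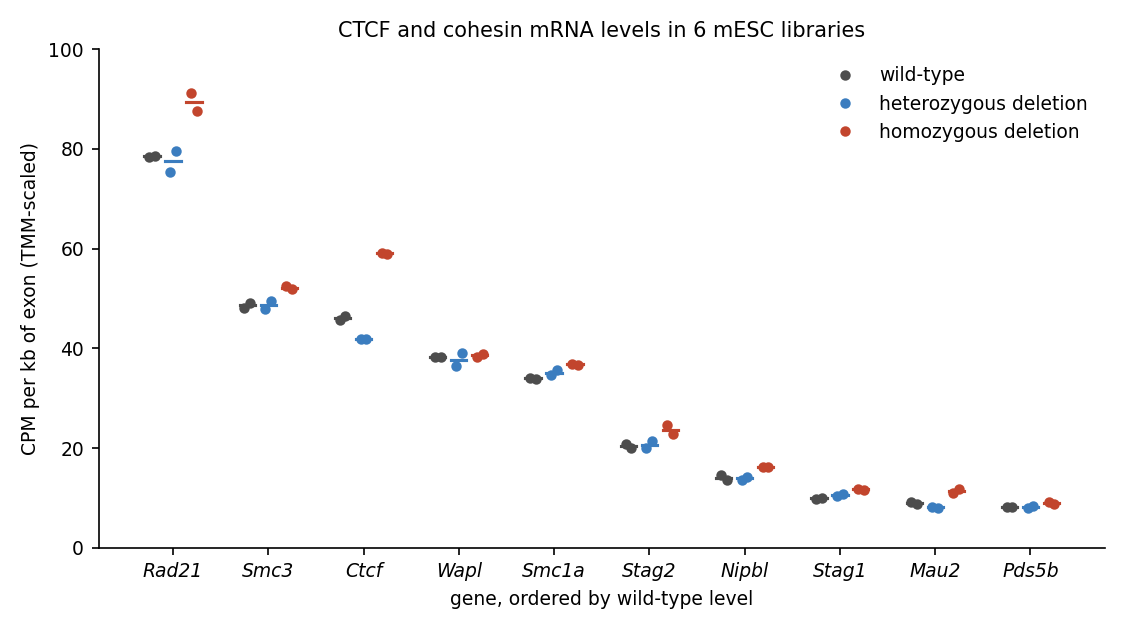
Level of each of the 10 genes in CPM per kb of merged exon (linear axis from 0) in every library, ordered by the WT mean, with points for libraries and bars for the mean of 2 libraries per genotype. *Rad21* lies highest in all 6 libraries, and the *Ctcf* points of the homozygous deletion lie near 59, above those of the other genotypes.

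None of the 10 genes passed the test between heterozygous and WT cells, while 7 were higher and 0 lower in the homozygous deletion than in WT. Genes were called at a Benjamini-Hochberg adjusted p below 0.05 over 16951 tested genes in an edgeR quasi-likelihood fit. Between heterozygous and WT cells 5.14% of the genes tested were called, 2.23% higher and 2.91% lower. There 3 of the 10 had an unadjusted p below 0.05 (*Ctcf* and *Mau2*, both on chromosome 8, and *Stag1*). The share of all tested genes with such an unadjusted p was not counted, so this count is descriptive only. DESeq2 also called 0 of the 10. In the homozygous deletion 21.4% of the tested genes were called against WT, with 10.9% higher and 10.5% lower. The 7 called genes were *Ctcf*, *Mau2*, *Stag1*, *Stag2*, *Nipbl*, *Rad21* and *Pds5b*. The other 3 were *Smc1a*, *Smc3* and *Wapl*. Highly expressed genes were called higher more often: among the 2898 other tested genes with a mean of at least 83.1 CPM, the mean of the lowest of the 10, 26.6% were higher and 6.63% lower in the homozygous deletion, and 3.04% and 4.69% in the heterozygous. Outside chromosome 8, which carries *Ctcf* and *Mau2*, 5 of 8 members were higher in homozygous cells and 0 in heterozygous cells, beside 22% and 3.23% of such genes. Below, the 2898 genes are called comparably expressed, a name that stands for a lower limit on level only. That limit was set by the 10 members, and no other list was matched to it. The changes were small. The largest was 0.36 on the log2 scale, and 0 of 10 passed the study's further threshold of an absolute log2 fold change above 1, which 2.14% of the tested genes passed.

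With library totals in place of TMM factors, 6 of 10 were higher in the homozygous deletion than in WT, *Pds5b* no longer. That scaling lowered the share of higher genes among all calls from 50.8% to 31.9%, and the share of the comparably expressed genes called higher to 16%. The heterozygous and homozygous comparisons share the WT libraries. Tested directly between the deletions, 7 of the 10 were higher and 0 lower in homozygous cells. This comparison shares the homozygous libraries with the one against WT. In that comparison 25.8% of the tested genes were called, 12.9% higher and 12.9% lower, and of the comparably expressed genes 30.5% were higher and 10.1% lower. Outside chromosome 8, 5 of 8 members were higher, beside 26% of such genes. None passed the threshold on the fold change, which 1.39% of the tested genes did. Library totals gave 5 of 10, without *Stag1* and *Pds5b*, beside 8.21% of all tested and 17.6% of comparably expressed genes called higher. The share of higher genes among all calls was then 29.4% in place of 50.1%. The 7 became 4 when heterozygous replicate 1 was left out, *Ctcf*, *Mau2*, *Nipbl* and *Rad21*.

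**Figure D2:**
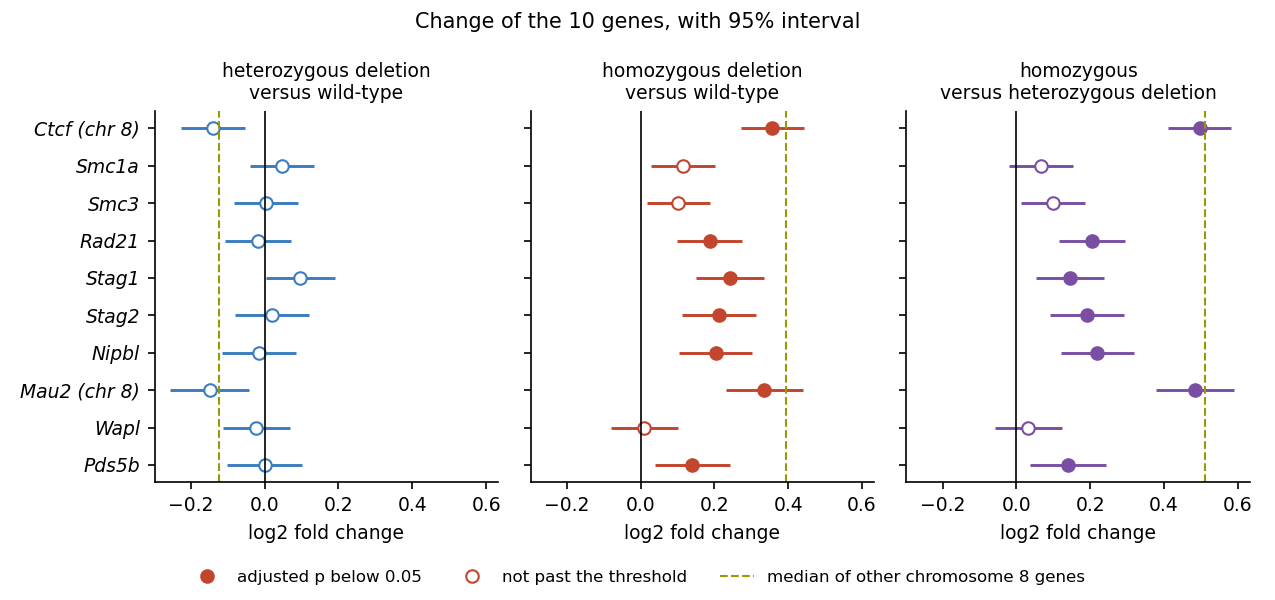
Log2 fold change of each gene (points) with its 95% interval (lines) in the 3 comparisons, from the edgeR fit of 2 libraries per genotype with TMM scaling, filled where the adjusted p is below 0.05. The dashed line is the median of the other chromosome 8 genes, near which *Ctcf* and *Mau2* lie in each comparison; *Wapl* lies at 0.01 in the homozygous deletion against WT, and at -0.05 with library totals.

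*Ctcf*, the gene of the boundary protein, had the largest change in the homozygous deletion. It lies on the plus strand at chr8:105636568-105682922 (GRCm38). Its level was 222 and 226 CPM in WT, 204 and 203 in the heterozygous and 288 and 287 in the homozygous libraries. The 3 genotypes did not overlap, with the heterozygous libraries lowest and the homozygous highest. Against WT the heterozygous libraries differed by -0.14 on the log2 scale (SE 0.041, edgeR adjusted p = 0.0538) and the homozygous by 0.36 (SE 0.041, edgeR adjusted p = 1.63e-06). The heterozygous difference lay at the threshold and was called under 6 of 14 alternatives (leaving aside a scaling on chromosome 8 described later), with adjusted p between 0.0250 and 0.364, and the homozygous one under 14 of 14, between 2.46e-14 and 0.000153. Homozygous against heterozygous, *Ctcf* was higher by 0.50 (SE 0.041, edgeR adjusted p = 1.79e-08). Exons of *Agrp* and *Gm5914* on the opposite strand share 114 and 370 bases with those of *Ctcf*. The strand setting of the counting is not given in the sources used here, and these neighbours had only 6 to 18 and 5 to 15 counts per library.

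Of the ring subunits, *Rad21* passed the test in the homozygous deletion, and *Smc3* and *Smc1a* lay above WT without passing it. *Rad21* (chromosome 15, minus strand, 51962240 to 51991747) stood at 332 and 333 CPM in WT, 319 and 337 in the heterozygous and 386 and 370 in the homozygous libraries. Both homozygous libraries lay above the other 4, and the heterozygous libraries spanned the WT values. The homozygous deletion differed from WT by 0.19 (SE 0.043, edgeR adjusted p = 0.00312) and the heterozygous by -0.02 (SE 0.043, edgeR adjusted p = 0.900). *Smc3* (chromosome 19, plus strand, 53600398 to 53645833), one of the ATPase arms of the ring, stood at 267 and 272, then 265 and 275, then 291 and 288 CPM. *Smc1a* (X chromosome, plus strand, 152016428 to 152062694), the other arm, stood at 197 and 195, then 200 and 205, then 213 and 211 CPM. For both genes the homozygous libraries lay above the other 4, but the differences missed the threshold. They were 0.10 (95% interval 0.02 to 0.19, edgeR adjusted p = 0.0848) for *Smc3* and 0.11 (0.03 to 0.20, edgeR adjusted p = 0.0567) for *Smc1a*, which 2 of 14 alternatives called. The differences of the 3 ring genes were not tested against each other. In the heterozygous deletion the intervals were -0.08 to 0.09 and -0.04 to 0.13.

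Both accessory subunits rose in the homozygous deletion. *Stag1* (chromosome 9, plus strand, 100597798 to 100959375) stood at 116 and 119 CPM in WT, 124 and 127 in the heterozygous and 140 and 138 in the homozygous libraries. The genotypes did not overlap and stood in the order WT, heterozygous, homozygous, although the step to the heterozygous deletion was 0.10 (SE 0.044) and missed the threshold (edgeR adjusted p = 0.277). The homozygous difference was 0.24 (SE 0.044, edgeR adjusted p = 0.000435). *Stag2* (X chromosome, plus strand, 42149317 to 42277185), the more abundant paralog in these cells, stood at 172 and 166, then 166 and 177, then 204 and 188 CPM. Its heterozygous libraries overlapped those of WT and its homozygous libraries lay above both. The homozygous difference was 0.21 (SE 0.048, edgeR adjusted p = 0.00309). Homozygous against heterozygous, *Stag1* differed by 0.14 and *Stag2* by 0.19 (edgeR adjusted p = 0.0207 and 0.00589). Leaving out 1 library ended the *Stag1* call for heterozygous replicate 1 or homozygous replicate 1 (edgeR adjusted p = 0.151 and 0.0539), and the *Stag2* call for heterozygous replicate 1 (edgeR adjusted p = 0.0952).

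The 2 loaders were both higher in the homozygous deletion. *Nipbl* (chromosome 15, minus strand, 8290617 to 8444463), which codes for the HEAT-repeat loader, stood at 138 and 128 CPM in WT, 129 and 134 in the heterozygous and 153 and 153 in the homozygous libraries. WT and heterozygous libraries overlapped, and both homozygous libraries were higher. The difference was 0.20 against WT (SE 0.047, edgeR adjusted p = 0.00353) and 0.22 against heterozygous cells (SE 0.047, edgeR adjusted p = 0.00178). The call against WT was lost without WT replicate 2 (edgeR adjusted p = 0.0788). *Mau2* (minus strand, chr8:70016123-70042734), the partner that binds the NIPBL N terminus, stood at 83.9 and 80.8, then 75.4 and 73.2, then 99.96 and 108 CPM. As for *Ctcf*, the 3 genotypes did not overlap, with the heterozygous libraries lowest. Against WT *Mau2* differed by -0.15 in heterozygous cells (SE 0.051, edgeR adjusted p = 0.117) and by 0.34 in homozygous cells (SE 0.050, edgeR adjusted p = 5.14e-05), and by 0.48 between the deletions (SE 0.051, edgeR adjusted p = 5.44e-07). Without homozygous replicate 1 or 2 the heterozygous difference from WT was called (edgeR adjusted p = 0.0499 and 0.0487).

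Of the release factors, *Wapl* was the member with the smallest difference in the homozygous deletion. *Wapl* (chromosome 14, plus strand, 34673928 to 34747983) stood at 254 and 254 CPM in WT, 241 and 258 in the heterozygous and 253 and 258 in the homozygous libraries. All 3 genotypes overlapped. The homozygous difference was 0.01 (95% interval -0.08 to 0.10, edgeR adjusted p = 0.910), turning to -0.05 with library totals, and the heterozygous one -0.02 (interval -0.11 to 0.07, edgeR adjusted p = 0.867). *Pds5b* (chromosome 5, plus strand, 150673739 to 150810690), which acts with WAPL and also with the acetyltransferases that stabilise the ring, stood at 80.2 and 80.6, then 78.5 and 82.2, then 90.4 and 86.7 CPM. Its homozygous libraries lay above the rest by 0.14 against WT (SE 0.049, edgeR adjusted p = 0.0463). This call rests on the settings. It held in 4 of 14 alternatives and missed the threshold with DESeq2, with library totals and with the replicate number as a block (adjusted p = 0.125, 0.231 and 0.0611).

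*Ctcf* and *Mau2* moved as the rest of chromosome 8 did. Over the other 888 tested genes of this chromosome the median log2 change against WT was -0.12 for heterozygous and 0.40 for homozygous cells, and 0.51 between the deletions. Tested genes outside chromosome 8 had medians of 0.00, -0.02 and -0.03. Within the chromosome, *Ctcf* lay at the 44.0, 43.0 and 48.1 percentile of these changes in the same order, and *Mau2* at the 41.0, 40.2 and 46.6 percentile. When libraries were scaled on the chromosome 8 genes alone, leaving out these 2, the homozygous difference of *Ctcf* was -0.04 (SE 0.045, edgeR adjusted p = 0.475). *Mau2* then stood at -0.06 (SE 0.052, edgeR adjusted p = 0.324). On that scale neither gene was called in any comparison. The scale centres the chromosome near 0 by its construction, so this follows from the percentiles and is no separate test. The chromosome-wide shift was seen in earlier results of these data, and its cause was not tested here.

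**Figure D3:**
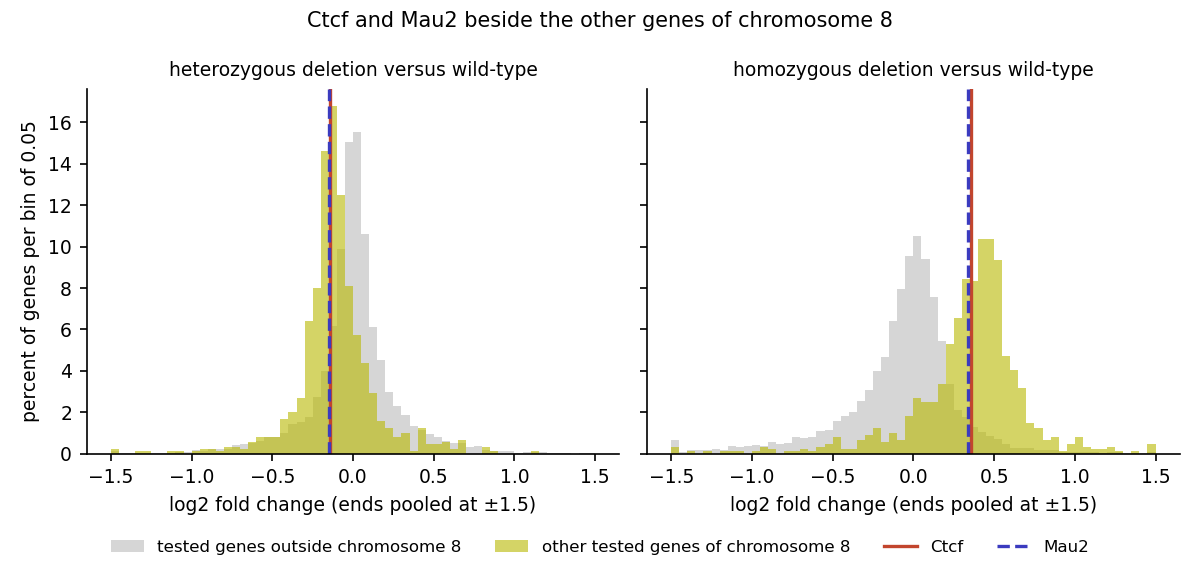
Distribution of log2 fold changes against WT, as the percent of genes per bin of 0.05 with the ends pooled at ±1.5, for the other tested genes of chromosome 8 and for tested genes outside it. Vertical lines mark *Ctcf* and *Mau2*, which lie inside the chromosome 8 distribution at -0.14 and -0.15 for heterozygous and at 0.36 and 0.34 for homozygous cells; both turn slightly negative in the latter when scaled on chromosome 8 alone.

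Without *Ctcf* and *Mau2*, the other 8 genes changed by a median of 0.00 (log2) in heterozygous and 0.16 in homozygous cells, where the median of all tested genes was 0.00 and -0.01 and that of the comparably expressed genes -0.01 and 0.05. Ratios of levels per kb within a library do not depend on the scaling. *Ctcf* to *Rad21* was 0.588 ± 0.00597 in WT, 0.540 ± 0.0212 in heterozygous and 0.661 ± 0.0175 in homozygous cells (SD, n = 2 each). *Nipbl* to *Mau2* ran the other way, at 1.56 ± 0.0418, 1.71 ± 0.0844 and 1.43 ± 0.0819. In both ratios, which each hold a chromosome 8 gene, the 3 genotypes did not overlap. *Wapl* to *Rad21* was 0.488 ± 0.00201 and 0.486 ± 0.00454 in WT and heterozygous cells and 0.432 ± 0.0183 in the homozygous deletion. *Wapl* to *Nipbl* was 2.72 ± 0.143, 2.70 ± 0.0529 and 2.38 ± 0.0404. Against *Rad21* and *Nipbl*, *Wapl* was lower in both homozygous libraries than in the other 4. *Stag2* to *Stag1*, at 2.05 ± 0.0802, 1.94 ± 0.0416 and 2.01 ± 0.0906, and *Smc1a* to *Smc3*, at 0.699 ± 0.0143, 0.721 ± 0.00411 and 0.705 ± 0.000223, had homozygous libraries inside the WT range or overlapping it. The ratios were not tested, since an exact permutation test of 2 against 2 libraries cannot give a two-sided p below 0.333.

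**Figure D4:**
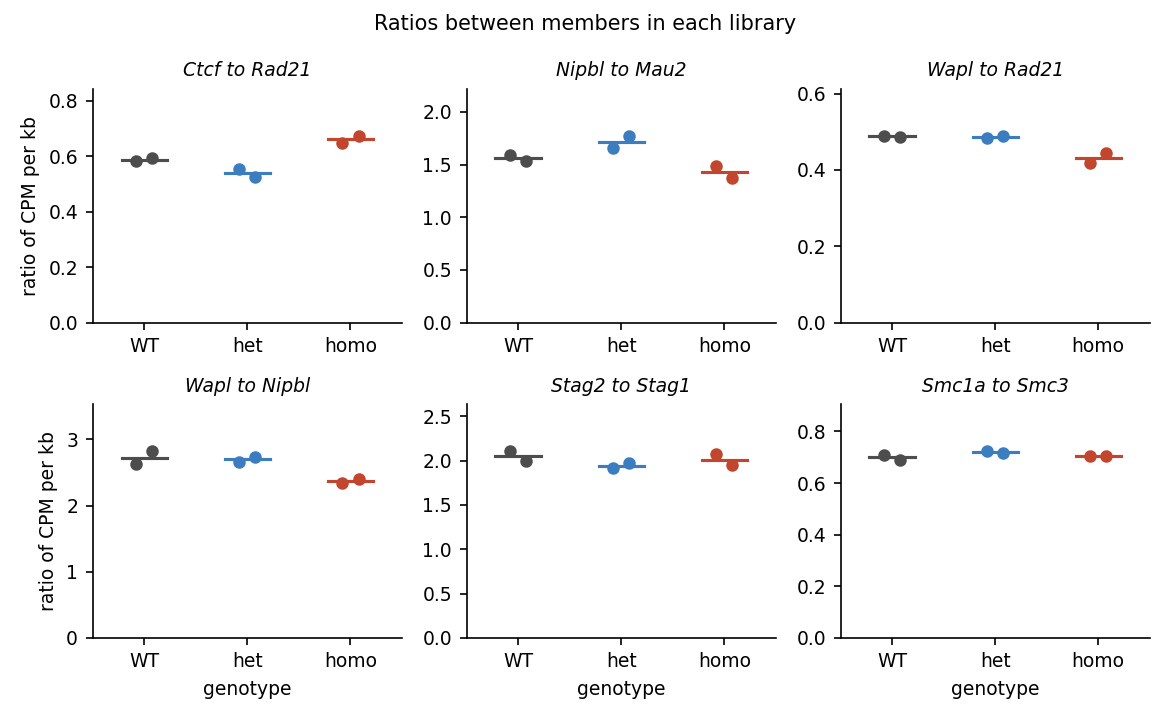
Ratios of levels per kb between pairs of the 10 genes in each library (points, 2 per genotype, linear axes from 0) with the genotype mean (bar). *Ctcf* to *Rad21* is highest and *Nipbl* to *Mau2*, *Wapl* to *Rad21* and *Wapl* to *Nipbl* are lowest in the homozygous deletion, while the *Stag* and *Smc* ratios overlap between WT and homozygous libraries.

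Markers of fibroblasts and of pluripotent cells and genes of the cell cycle also differed between the genotypes. Of 21 tested fibroblast markers, 17 were lower than in WT in heterozygous and 19 in homozygous cells, with medians of -0.51 and -1.09. Of all tested genes 2.91% and 10.5% were lower. None of the 22 markers was at 0 in all libraries. The 8 pluripotency markers summed to 2925 to 3012 CPM in WT, 2702 to 2720 in the heterozygous and 2959 to 3127 in the homozygous libraries. Of these, *Sox2*, *Klf4*, *Esrrb*, *Zfp42* and *Dppa5a* were lower in the heterozygous deletion, as were 2.91% of all tested and 4.69% of comparably expressed genes. In the homozygous deletion *Zfp42* was higher (0.22) and *Klf4* lower (-0.19). *Zfp42* lies on chromosome 8, and its change in heterozygous cells was -0.31. The tested genes there other than *Ctcf* and *Mau2* had medians against WT of 0.40 for homozygous and -0.12 for heterozygous cells. Whether *Zfp42* differed from its chromosome was not tested. These stem cell markers were named after their values were seen. Neither they nor the cell cycle genes that follow were matched by level to the comparably expressed genes. Of 12 cell cycle genes, 6 were higher in the homozygous deletion than in WT, beside 10.9% of all tested and 26.6% of comparably expressed genes, with a median of 0.13. With library totals 4 were higher, beside 6.98% of all tested and 16% of comparably expressed genes, with a median of 0.070. The summed level of the 12 was 4485 to 4501 CPM in WT, 4362 to 4396 in the heterozygous and 4980 to 5128 in the homozygous libraries. One of them, *Mcm5*, lies on chromosome 8, was named after its values were seen, and was also the cell cycle gene called lower in the heterozygous deletion (-0.23). The part of fibroblast RNA and of the cell cycle in the changes of the loop machinery was not tested. With scaling on genes outside chromosome 8 and the fibroblast list, 8 of the 10 genes were called against WT in the homozygous deletion, *Smc1a* in addition to the 7 (edgeR adjusted p = 0.0376). Under it 11.9% of all tested and 29.3% of comparably expressed genes were called higher. This scaling changes the library sizes only and takes no fibroblast RNA out of the counts.

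Among other regulators of cohesin, 2 of 13 were higher and 1 lower in homozygous cells than in WT, where 10.9% of all tested genes were higher and 10.5% lower. Their median was 0.05. Library totals left 1 higher, where 6.98% of all tested genes were higher, and turned the median to -0.0034. The higher ones were *Pds5a*, the paralog of *Pds5b*, at 0.19 and *Espl1*, the separase that cuts RAD21, at 0.16. The lower one was *Pttg1*, its inhibitor securin, at -0.22 (edgeR adjusted p = 0.00312, 0.00821 and 0.0103). None of the 13 was called in the heterozygous deletion. Homozygous against heterozygous, 4 were higher (*Pds5a*, *Espl1*, *Haspin* and, on chromosome 8, *Chtf8*) and *Pttg1* was lower, with *Haspin* named after its value was seen. In that comparison 12.9% of all tested genes were higher and 12.9% lower. Condensin, the related complex that compacts mitotic chromosomes, had 5 of 8 subunits higher and 0 lower in homozygous cells than in WT, beside 10.9% of all tested and 26.6% of comparably expressed genes called higher, and a median of 0.16. With library totals 4 of 8 were higher, beside 6.98% of all tested and 16% of comparably expressed genes, with a median of 0.10. Between the deletions, 3 of 8 were higher and 0 lower, beside 12.9% of all tested and 30.5% of comparably expressed genes called higher. Library totals left 2 there, beside 8.21% and 17.6%. The 5 higher than in WT were *Ncapg2* (0.21), *Smc4* (0.21), *Ncapd3* (0.20), *Smc2* (0.18) and *Ncaph* (0.14), the last named after its value was seen. Of 9 subunits and partners of the SMC5/6 complex, which acts in DNA repair, *Nsmce2* (0.29), *Smc6* (0.19) and *Slf2* (0.15) were higher and 0 lower. Of all tested genes 10.9% were higher, and 26.6% of those with a mean of at least 83.1 CPM. Neither the 9 genes nor the condensin subunits were matched to the latter by level. The median of the 9 was 0.05. With library totals 1 of 9 was called higher, beside 6.98% of all tested genes, and the median was -0.01. None of the condensin or SMC5/6 genes was called in the heterozygous deletion.

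The germline paralogs *Ctcfl*, *Rad21l* and *Smc1b* were barely detected. *Ctcfl* had 3 to 10 counts, *Rad21l* 8 to 15 and *Smc1b* 32 to 51 counts per library. Of the 4 that passed the filter, *Rec8*, the meiotic counterpart of *Rad21*, was higher in the homozygous deletion (0.27, edgeR adjusted p = 0.0430), a call lost with library totals, while the median of the 4 was -0.23. Among 6 factors that act at loop anchors or beside CTCF, *Ldb1*, an adaptor of enhancer loops, was lower in both deletions than in WT, at -0.21 (edgeR adjusted p = 0.0140) and -0.29 (edgeR adjusted p = 0.000192). *Vezf1* was lower in the homozygous deletion (-0.18, edgeR adjusted p = 0.0377). The median of these factors was -0.04, or -0.10 with library totals, under which 3 of 6 were lower in place of 2. Among all 16951 tested genes, 2525 were called lower with library totals in place of 1786. Between the deletions, *Zfp143* was higher in homozygous cells (0.21) and *Vezf1* lower (-0.29).

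**Figure D5:**
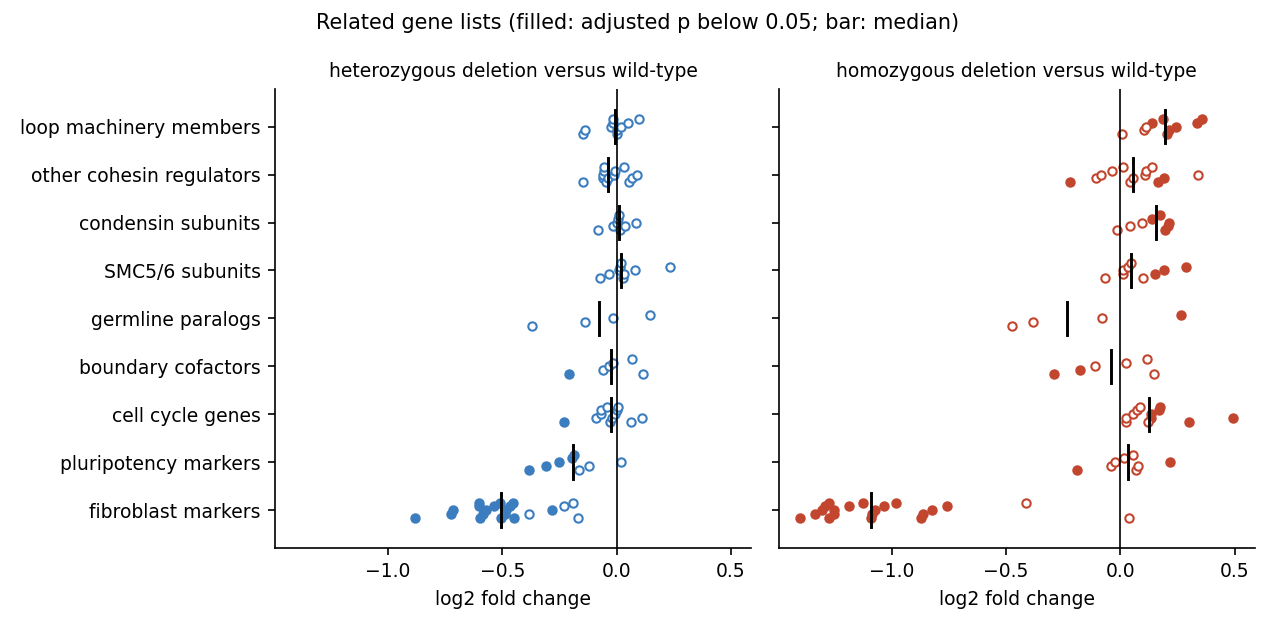
Log2 fold change against WT of the tested genes of each list (points, filled where the edgeR adjusted p is below 0.05; black bars, list medians) with TMM scaling. In the homozygous deletion the loop machinery (median 0.20) and condensin (0.16) lie to the right of 0 and the fibroblast markers (-1.09) to the left; the small positive medians of SMC5/6 and the other cohesin regulators fall to or below 0 with library totals.

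To see which genes had a pattern like that of *Ctcf* and *Rad21*, Pearson's r of log2(CPM + 0.5) over the 6 libraries was used as a measure of likeness. It is descriptive, since the libraries are 3 pairs that share a genotype and a scaling. Nearest to *Ctcf* were *Pcid2*, *Wwox* and *Aars* (r = 0.9996, 0.9994 and 0.9992), all on chromosome 8. Of the 50 genes nearest to *Ctcf*, 45 (90%) lie on chromosome 8, which holds 5.25% of the tested genes. Nearest to *Rad21* were *Ubox5*, *Mcm3ap* and *Yme1l1* (r = 0.999, 0.998 and 0.997), and 6 of its 50 (12%) lie on chromosome 8. Among the 10 genes, *Rad21* was most like *Pds5b* (0.994) and *Smc3* (0.978), and *Ctcf* most like *Mau2* (0.978). *Wapl* was least like either, at 0.479 with *Rad21* and 0.375 with *Ctcf*.

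Promoter sequences are shown because several of the genes rose together and 2 of them lie on the same chromosome. RefSeq windows (GRCm38.p6, from 250 bases before to 50 after the annotated start) were found for *Ctcf*, *Smc1a*, *Smc3*, *Stag1*, *Mau2*, *Wapl* and *Pds5b*. The 250 bases upstream of *Ctcf* and of *Mau2*, the pair on chromosome 8, are given from 5′ to 3′ on the strand of the gene, with a GC box, which Sp1-type factors bind, in capitals (here read on the other strand).
*Ctcf*, chr8:105636288-105636537, plus strand: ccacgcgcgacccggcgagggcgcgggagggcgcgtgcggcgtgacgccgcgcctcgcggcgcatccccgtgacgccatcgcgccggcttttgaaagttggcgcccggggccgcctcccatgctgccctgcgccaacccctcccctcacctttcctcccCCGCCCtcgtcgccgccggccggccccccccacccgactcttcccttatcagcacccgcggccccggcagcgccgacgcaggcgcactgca
*Mau2*, chr8:70042735-70042984, minus strand: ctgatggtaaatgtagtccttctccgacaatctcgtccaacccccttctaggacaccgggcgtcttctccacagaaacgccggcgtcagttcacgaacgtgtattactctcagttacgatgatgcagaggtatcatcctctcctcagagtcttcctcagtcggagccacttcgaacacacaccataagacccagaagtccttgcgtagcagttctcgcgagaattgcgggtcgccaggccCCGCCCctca
The *Ctcf* stretch is 77.6% G and C and the *Mau2* stretch 54.8%. Each holds 1 GC box and no CCAAT box.

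All 7 windows held the GC box GGGCGG on at least 1 strand, as did 35.7% of 32851 RefSeq windows of the same length. The core of the YY1 motif, GCCATNTT on either strand, lay in 4 of the 7 (*Ctcf*, *Smc3*, *Stag1* and *Pds5b*) and in 6.05% of all windows. All motifs given here were chosen after the sequences were seen, so the shares are descriptive and were not tested. The 32851 windows were not matched to the members by expression or by G and C content. YY1 is a zinc finger factor that binds many promoters close to the start. Counted in bases from the RefSeq start, the motif began at 10 in *Ctcf*, 0 in *Smc3*, -37 in *Pds5b* and -202 in *Stag1*. These RefSeq starts differ from the starts of the gene extents given above. The *Ctcf* surroundings lie before the start of its extent, and the *Pds5b* match lies inside its extent. The 30-base surroundings are shown on the gene's strand with the match in capitals. In *Stag1* the match is on the other strand.
*Ctcf*, chr8:105636537-105636566: accgcgccgccGCCATTTTgtgtccgagcc
*Smc3*, chr19:53600385-53600414: ccgcggccgccGCCATTTTgtttggccaca
*Pds5b*, chr5:150673779-150673808: ctgctcttggcGCCATTTTgaagcggagag
*Stag1*, chr9:100643235-100643264: gagaagctctaAAAATGGCgggcggcaacc
*Pds5b* also held the core of the CTCF motif (the letters in capitals in the next sequence, searched on both strands), beginning at -129, which lay in 0.307% of the windows.
*Pds5b*, chr5:150673688-150673717: tgcggccggtAGGGGGCGCTgagaacccac
The NRF1 motif, on either strand, lay in *Stag1*, *Wapl* and *Pds5b* (4.60% of windows), with 2 of the *Pds5b* matches overlapping, and CCAAT in *Smc1a*, *Stag1*, *Wapl* and *Pds5b* (37.4%). These are matches of letters in a window, not measured binding, and their relation to the changes in level was not tested.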

How the data were processed

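RNA-seq of 6 mESC libraries of 3 genotypes was analysed. The authors deposited whole-number counts of reads per gene, without normalization; the submitters' processing notes name Trimmomatic 0.39, STAR 2.6.1d, SAMtools 1.9, featureCounts 1.6.4 and DESeq2 1.22.2 with GRCm38, while the annotation release and strand setting are not given in the sources used here. From these counts, tests were computed in R 4.3.3 with edgeR 4.0.16 (TMM factors, quasi-likelihood, Benjamini-Hochberg over all tested genes) and limma 3.58.1. Genes with 10 or more counts in 2 or more libraries entered (16951), in 1 model of 3 genotypes without a block, whose common biological coefficient of variation was 3.52%. Replicates differed by more than sampling noise (chi-square per degree of freedom 2.22 to 3.42) and were each counted. Positions, exon lengths and overlaps came from the GRCm38 GENCODE annotation, in which 55144 identifiers were found, and promoters from RefSeq GRCm38.p6. CPM were scaled with the TMM factors, and the measure of likeness used a pseudocount of 0.5.

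The members, gene lists and tests were chosen with earlier results of these data known, and the motifs after the sequences were seen. All 10 members were named; of the other lists at most the 4 called genes with the smallest adjusted p per list and comparison, excepting cell cycle and marker genes, with further genes marked in the text as named after their values were seen; and the 3 genes most like *Ctcf* and *Rad21*. On simulated homozygous against WT counts (16656 genes), 79 of 100 genes changed by 1 on the log2 scale were recovered (61 of 61 at a mean of at least 100 counts) and 64 of 98 changed by 0.4 (33 of 33 at a mean of at least 1000), with 5 false calls in all. Smaller changes were not simulated. Alternatives were DESeq2 1.42.0, its size factors, library totals, 2 other filters, only the libraries compared, a replicate block, the fold threshold, 2 other scalings and each library left out. Python 3.11.15, pandas 2.3.3, numpy 2.4.6 and matplotlib 3.10.9 were used for summaries and figures.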

Additional observations from a re-analysis of the deposited data

Results flagged for a closer look

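For 7 of the 10 genes the homozygous deletion differed from the heterozygous deletion when the 2 were tested directly in the edgeR fit, so that their changes against WT were unequal. In this comparison 12.9% of all tested and 30.5% of comparably expressed genes were called higher. The homozygous minus heterozygous log2 change was 0.50 for *Ctcf* and 0.48 for *Mau2*, where the median of the other chromosome 8 genes was 0.51. It was 0.22 for *Nipbl*, 0.20 for *Rad21*, 0.19 for *Stag2*, 0.14 for *Stag1* and 0.14 for *Pds5b*. All 7 were higher in both homozygous than in both heterozygous libraries, as were *Smc1a* and *Smc3*, which were not called. The 7 were picked by a test on these same libraries, so this separation adds no support. The share of all tested genes that separate in this way was not counted. Genotypes of 2 libraries are too small for a check of single outlying libraries.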

How the results depend on the processing

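With the study's fold threshold added, no member was called in any comparison (0 in place of 7 and 7), and the tested genes called fell to 28, 362 and 236 from 871, 3633 and 4371 (heterozygous and homozygous against WT, and homozygous against heterozygous). DESeq2 called 482, 2265 and 2761. In the heterozygous deletion 1 member, *Ctcf*, was called with DESeq2 size factors, without a filter, with only the libraries compared, and with scaling outside chromosome 8 and fibroblast markers. With 1 library left out the members called ran from 0 to 2, 5 to 7 and 4 to 7, and the tested genes from 352 to 1306, 2148 to 3618 and 2908 to 4357. The heterozygous 2 came without homozygous replicate 1 or 2, and the 4 without heterozygous replicate 1. The lowest counts of tested genes came without WT replicate 2, WT replicate 1 and heterozygous replicate 1; in the heterozygous comparison 414 were called without WT replicate 1 and 355 without heterozygous replicate 2, and in the homozygous one 2330 without WT replicate 2.

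Replicate numbers did not pair the libraries (correlations of deviations 0.026, -0.094 and 0.0087). With the replicate number as a block, 0, 6 and 6 members and 816, 3447 and 4150 tested genes were called; *Pds5b* missed the threshold, with no other call of the 10 changed.

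Scaling on chromosome 8 alone turned *Ctcf* to -0.036 and -0.021 and *Mau2* to -0.058 and -0.034 in the homozygous deletion against WT and heterozygous cells, by the construction of that scale. Other turned signs were in differences near 0. In the heterozygous deletion *Smc3* went to -0.0047 (DESeq2 and its size factors), -0.0027 (no filter) and -0.0021 (scaling outside chromosome 8 and fibroblast markers), and *Pds5b* to -0.0083, -0.0084, -0.0064, -1.7e-05 (filterByExpr), -9.5e-05 (replicate block) and -0.0057. Library totals gave *Wapl* -0.047 and -0.034 in the homozygous deletion against WT and heterozygous cells, and *Smc1a* -0.0011 in the latter. With 1 library left out, the values ran from -0.021 to 0.028 for *Smc3*, -0.057 to 0.021 for *Rad21*, -0.025 to 0.063 for *Stag2*, -0.068 to 0.042 for *Nipbl*, -0.073 to 0.025 for *Wapl* and -0.034 to 0.033 for *Pds5b* in the heterozygous deletion. *Wapl* ran from -0.0042 to 0.032 and from -0.015 to 0.082 in the homozygous one. The cause of the other differences was not tested. Of all values of single members under an alternative, 362 kept their sign and side of the threshold, 24 lost and 11 gained a call and 29 changed sign.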
